A study of Mus musculus with 32 samples.

Results

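The 9 genes described here encode a transforming growth factor ligand, its receptors, the SMAD proteins below them and their corepressors. They are Tgfb1, Tgfbr1, Tgfbr2, Smad2, Smad3, Smad4, Smad7, Ski and Skil. They were taken by symbol from the 24411 genes of the table on CD11c-DTR recipients and the 24421 of the table on CX3CR1-DTR recipients, and all 9 were found in both. The choice was by symbol alone, although it was made with earlier results of these data known.

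Monocytes were transferred into mice whose gut macrophages had been removed by diphtheria toxin (DTx), and their progeny were sorted from the gut and sequenced in bulk. Recipients were irradiated wild type mice (WT) carrying BM of CD11c-DTR transgenic mice, [CD11c-DTR > WT], all on a C57BL/6 background, so only the hematopoietic cells carry the toxin receptor, under the Itgax promoter. They received 18 ng DTx per gram of body weight before the transfer and 9 ng per gram every other day after it. Donors carried a GFP reporter in 1 allele of Cx3cr1, and the graft was sorted as CD117- CD11b+ CD115+ Ly6C+ GFPint monocytes. The labels name blood as the organ of the graft and give it no toxin, whereas the study describes BM. For the progeny the labels give the selection DAPI- CD45+ CD11b+ CD64+ Ly6C- MHCII+, whereas the study describes a sort by the donor allotype CD45.1 and GFP. The graft has 3 libraries, colon has 3 on day 4, 3 on day 8 and 4 on day 12, and ileum has 4 on each of days 4, 8 and 12, which makes 25 libraries. The dates in their titles, which span several days each, were read as 3 experiments. A further colon day 8 library, of experiment 1, was not used by the study and enters only where it is named. In the other model, [CX3CR1-DTR > WT], toxin sensitivity follows the Cx3cr1 promoter, and the DTx doses were again 18 and 9 ng per gram. For it 6 colonic libraries were deposited. The study lists fewer repeats than that for this model without naming them, and all 6 were used. They are of day 14 by a figure legend of the study and its list of data sets, and their labels give no day. Neither the ages of the mice nor whether libraries came from separate mice is stated in the labels, so p-values measure the spread between these libraries.

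TGF-beta 1 is secreted in a latent form and, once activated, binds the type II receptor TGFBR2, which phosphorylates the type I receptor TGFBR1. TGFBR1 then phosphorylates SMAD2 and SMAD3, which join SMAD4 and enter the nucleus. SMAD7 blocks the receptor and is itself induced by the signal, and SKI and its relative SnoN, the product of Skil, hold SMAD complexes in a repressed state. In the gut the pathway is known for restraining inflammation and for shaping resident macrophages.

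Tgfb1 and Tgfbr2 moved in opposite directions between the graft and colon, and their promoters are shown for that reason. In mm9, Tgfb1 lies at chr7:26472021-26490096 on the plus strand and Tgfbr2 at chr9:115996813-116084481 on the minus strand. The windows below are the 250 bases before the RefSeq start in GRCm38.p6, 5′ to 3′, at chr7:25686752-25687001 (plus strand) and chr9:116175364-116175613 (minus strand). Capitals mark the letters CAGAC or, on the other strand, GTCTG, the core to which SMAD3 and SMAD4 bind.
Tgfb1: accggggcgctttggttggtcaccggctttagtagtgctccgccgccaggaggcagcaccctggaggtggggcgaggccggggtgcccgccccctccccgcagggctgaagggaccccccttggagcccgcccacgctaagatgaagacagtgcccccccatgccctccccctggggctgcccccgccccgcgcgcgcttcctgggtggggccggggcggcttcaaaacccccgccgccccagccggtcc
Tgfbr2: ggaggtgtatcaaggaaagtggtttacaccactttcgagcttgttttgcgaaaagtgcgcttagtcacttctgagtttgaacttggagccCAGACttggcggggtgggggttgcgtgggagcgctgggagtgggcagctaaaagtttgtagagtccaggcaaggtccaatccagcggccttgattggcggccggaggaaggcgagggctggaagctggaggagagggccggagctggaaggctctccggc
The window of Tgfb1 held 0 matches and that of Tgfbr2 held 1, where 42.2% of 32851 mouse promoter windows of this length held at least 1. G and C made up 75.2% of the Tgfb1 window and 58.4% of the Tgfbr2 window, with 21 and 12 CG dinucleotides, against medians of 52.4% and 6 over all windows. A match of letters is a description and not a bound site.

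Libraries held 591817 to 5228664 reads on genes in the CD11c-DTR experiments (median 2447862) and 1223772 to 4218027 in the CX3CR1-DTR libraries. Levels are given as normalized reads, which are reads per 10000000 mapped reads of the library. The labels of the gut libraries were set against marker genes. The summed level of 8 pan-leukocyte genes was 87421 to 99941 normalized reads in the graft, 1792 to 8009 in colon and 5376 to 43014 in ileum, with all 8 genes above 3 counts in every one of these libraries. The summed level of 15 intestinal epithelium genes was 36.8 to 58.9 in the graft, 109406 to 173125 in colon and 20254 to 135798 in ileum, and all 15 were above 3 counts in every gut library. The 12 macrophage genes summed to 13406 to 15702 in the graft, where Mertk was at 0, to 4748 to 24640 in colon and to 11702 to 116353 in ileum. The 8 endothelial genes summed to 81.4 to 124 in the graft, 327 to 1272 in colon and 228 to 6289 in ileum. The 8 fibroblast genes summed to 0 to 5.61, 520 to 5107 and 281 to 5502 in the same order. The 8 B cell genes summed to 247 to 274 in the graft, 1277 to 9131 in colon and 3954 to 142376 in ileum, and the 6 monocyte genes to 51063 to 65580, 3156 to 7739 and 2164 to 8290. Of the ileal libraries, those of experiment 1 on day 4 (replicates 2 and 3) had the highest epithelial sums and day 12 replicate 1 had the highest leukocyte and macrophage sums. Graft and gut libraries therefore differed in the levels of marker genes of several cell types. Which cells these reads came from was not tested, nor was the part of this in the results below. In bulk libraries, fewer cells of a type and less RNA per cell cannot be told apart.

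From the graft to colon, Smad7, Skil and Tgfbr2 rose and Tgfb1 fell on all 3 days, and Smad3 rose on day 12. Fold changes were fitted with edgeR over 11842 genes, and a change was called at a Benjamini-Hochberg adjusted p under 0.05. On day 4, 3 of the 9 genes were called higher, where 35.9% of all genes were, and 1 lower, where 24.5% were. On day 8 the counts were 3 higher (35.2% of all genes) and 1 lower (23.9%). On day 12 they were 4 higher (37.7%) and 1 lower (24.9%). The median log2 fold change of the 9 genes was 0.56, 0.64 and 0.15 on the 3 days, and that of all genes was 0.21, 0.22 and 0.24. From the graft to ileum the same 3 genes, Smad7, Skil and Tgfbr2, rose on all 3 days. On day 4, 3 genes were higher (36.2% of all genes) and 1 lower (20.5%), on day 8, 3 were higher (34.3%) and 1 lower (19.5%), and on day 12, 5 were higher (35.9%) and 1 lower (20.0%). The gene called lower was Tgfb1 on day 4 and Smad2 on days 8 and 12, and the additional genes called higher on day 12 were Tgfbr1 and Smad3. The median of the 9 genes was 0.59, 0.44 and 0.95, against 0.23, 0.20 and 0.22 over all genes. All 6 comparisons share the 3 graft libraries. Where libraries of a gene are said below to lie above or below the graft, the share of all genes doing so was not counted. Scaling to library totals in place of TMM moved the median of all genes by -0.55 to -0.25 in these comparisons.

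**Figure D1:**
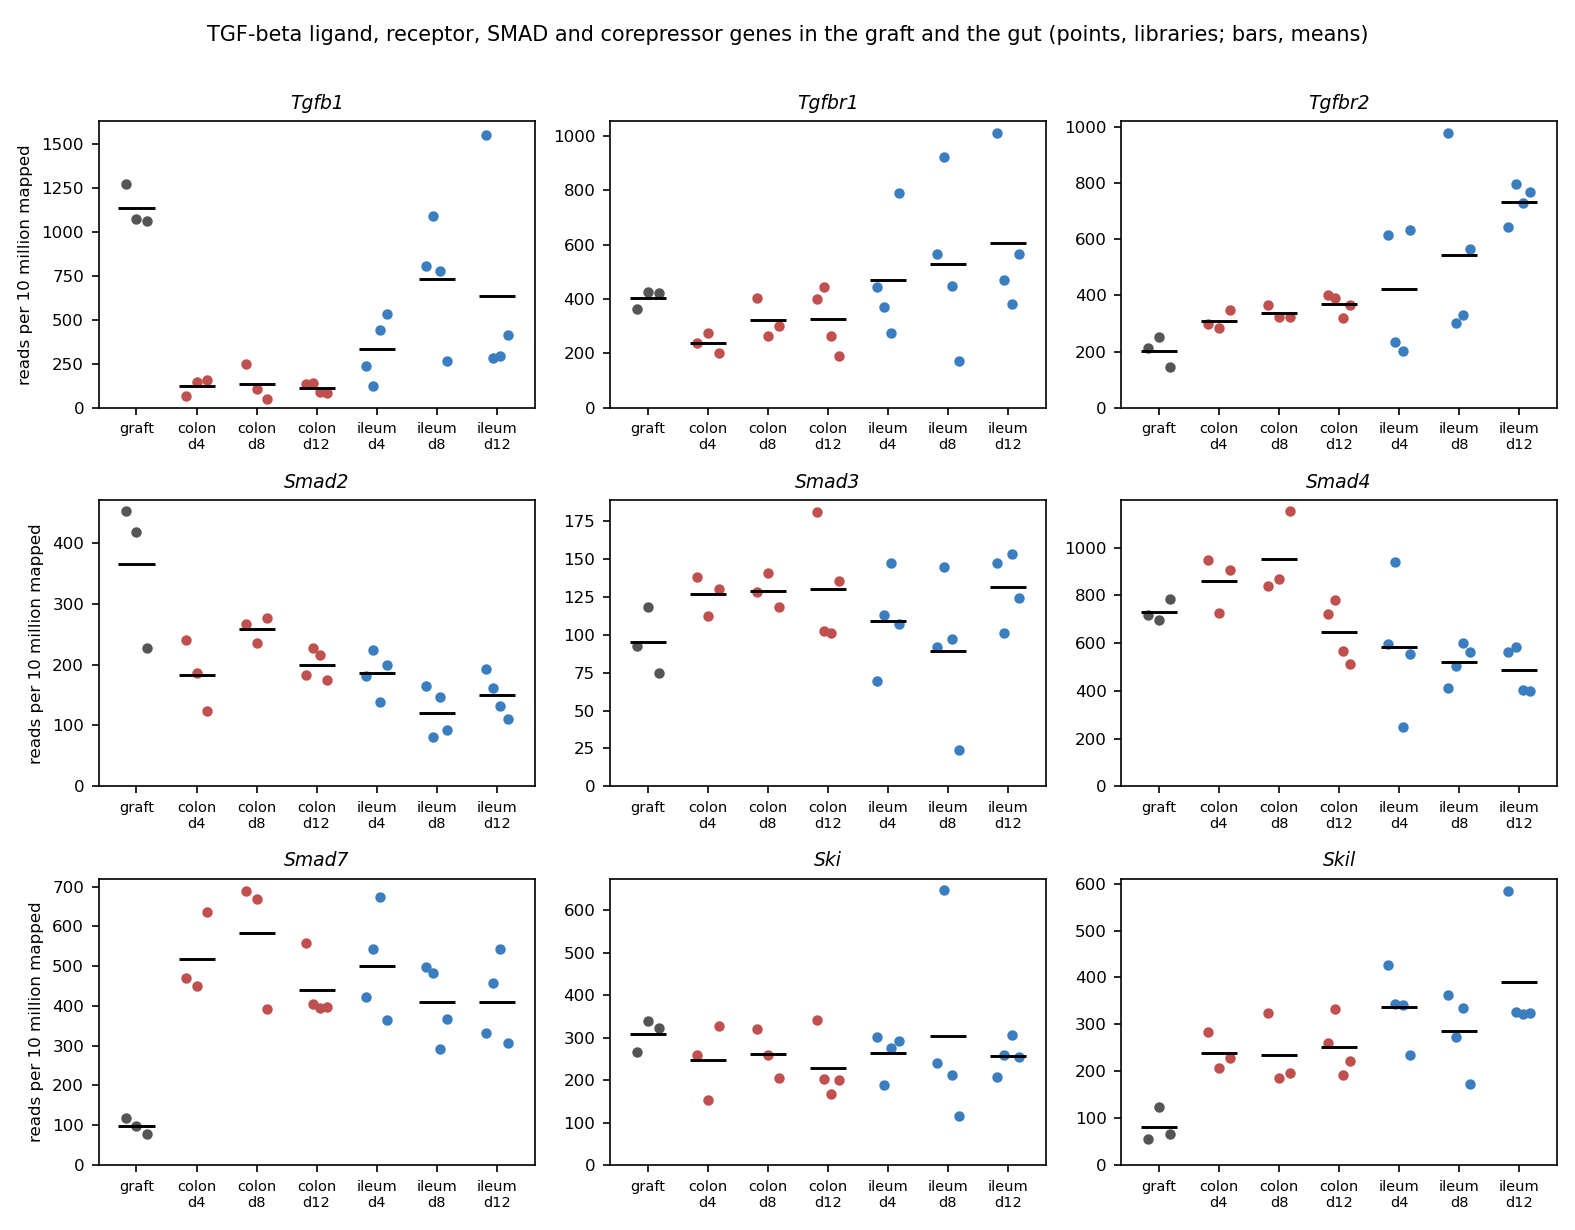
Normalized reads (reads per 10000000 mapped reads) of the 9 genes in each library of the graft (grey), colon (red) and ileum (blue) by day (d4, d8, d12), with each gene on its own axis from 0. Points are libraries and bars are group means. All 22 gut libraries lie above the 3 graft libraries for Smad7 and Skil, and the 10 colonic libraries lie below the graft for Tgfb1. The share of all genes that separate in this way was not counted.

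Tgfb1, which encodes the ligand, was at 1272, 1077 and 1061 normalized reads in the 3 graft libraries. In colon it was at 68.1, 148 and 155 on day 4, at 247, 104 and 51.5 on day 8 and at 136, 140, 88.9 and 84.1 on day 12. No colonic library reached the graft. In ileum it was at 238, 124, 442 and 535 on day 4, at 808, 1089, 776 and 265 on day 8 and at 1555, 282, 294 and 413 on day 12. Per mapped read, ileal libraries spread widely, with 1 of day 8 inside the range of the graft and 1 of day 12 above it. From the graft to colon Tgfb1 fell, with log2 fold changes (± SE) of -2.85 ± 0.65 on day 4, -2.90 ± 0.65 on day 8 and -3.02 ± 0.58 on day 12 (adjusted p = 5.86e-04, 5.39e-04 and 9.96e-05). From the graft to ileum it fell by 1.38 ± 0.57 on day 4 (adjusted p = 0.0426), and the differences of -0.14 ± 0.55 on day 8 and -0.31 ± 0.55 on day 12 did not pass (adjusted p = 0.847 and 0.655).

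The ileal values of Tgfb1 rested on single libraries. Without ileum day 12 replicate 1, the library at 1555, the change to day 12 was -1.31 (adjusted p = 0.0245). The call on day 4 was lost without ileum day 4 replicate 1 (-1.25, adjusted p = 0.0957) or 2 (-1.06, 0.132), without graft replicate 1, 2 or 3 (adjusted p = 0.0898, 0.0674 and 0.0720), with the ileal libraries of experiment 2 alone (-1.22, adjusted p = 0.138), with all 4 colon day 8 libraries in the fit (-1.37, 0.146) and with the stricter filter (-1.29, adjusted p = 0.0563). In the colon day 8 library that the study did not use, Tgfb1 was at 1255. With that library among the group, the change from the graft to colon day 8 was -0.97 and no longer passed (adjusted p = 0.296).

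Tgfb1 was also set against the level of the pan-leukocyte genes in each library. Per 1000 reads of the 8 pan-leukocyte genes it had 10.6 to 14.5 reads in the graft, 17.5 to 43.4 in colon and 15.3 to 49.2 in ileum. On this scale every gut library lay above the graft, whereas per mapped read every colonic library lay below it. The scale was chosen after seeing the data, and the ratio says nothing of which cells the reads came from. The pan-leukocyte sum itself fell, from a median of 97080 normalized reads in the graft to 3311 in colon and 15338 in ileum. Any gene that fell by less than this sum therefore turns to a rise on this scale, and the turn is not particular to Tgfb1.

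**Figure D2:**
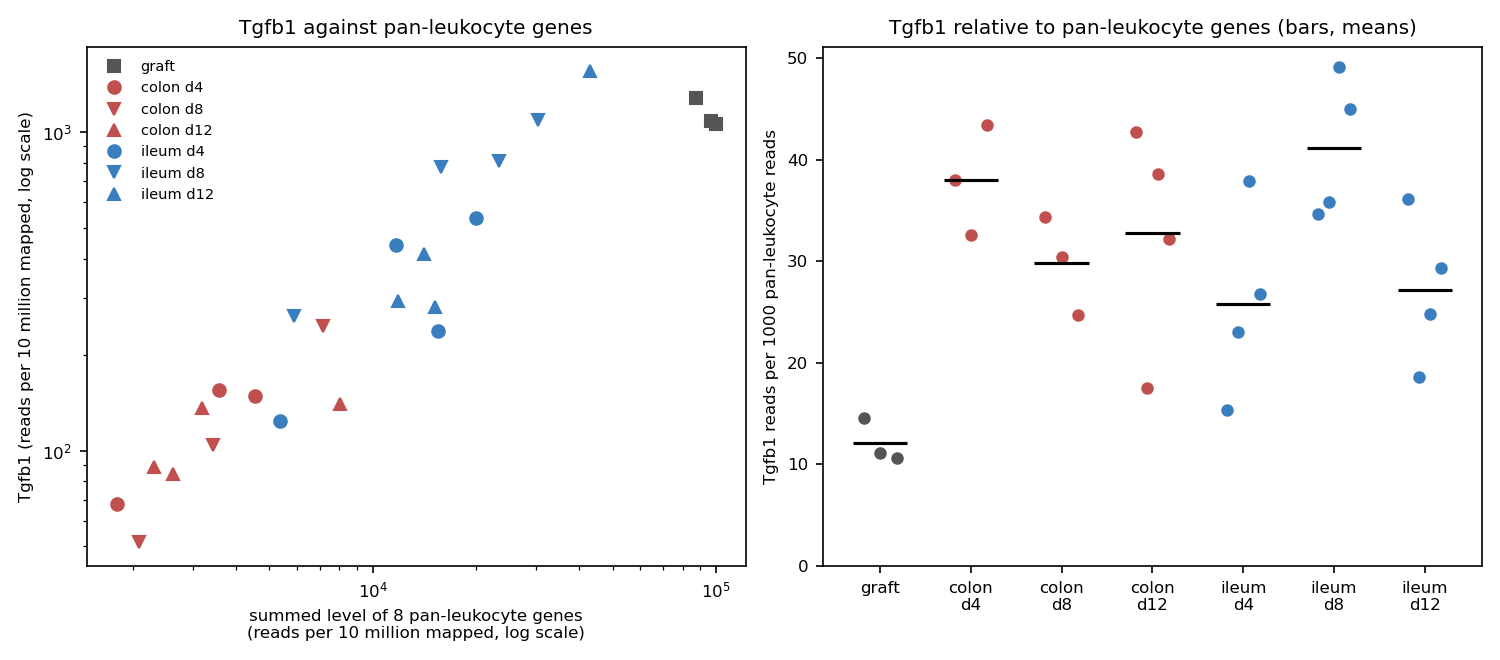
Left, Tgfb1 against the summed level of 8 pan-leukocyte genes in 25 libraries, both in reads per 10000000 mapped reads on log axes, with symbols for segment and day. Right, Tgfb1 reads per 1000 pan-leukocyte reads by group, with points for libraries and bars for means. The graft lies lowest at right (10.6 to 14.5) and among the highest at left.

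The receptor genes differed from each other. Tgfbr2, which encodes the ligand-binding receptor, was at 213, 252 and 145 normalized reads in the graft. In colon it was at 299, 285 and 348 on day 4, at 365, 324 and 324 on day 8 and at 403, 389, 318 and 364 on day 12, so every colonic library lay above the graft. In ileum it was at 614, 235, 203 and 635 on day 4, at 979, 300.0, 331 and 564 on day 8 and at 643, 797, 728 and 770 on day 12. Per mapped read, only on day 4 did ileal libraries, replicates 2 and 3 of experiment 1, fall within the range of the graft. With reads on genes in place of mapped reads, the graft was at 211 to 357. The lowest ileal library of day 4 was then at 372, above that range. Tgfbr2 rose by 0.95 ± 0.39, 0.98 ± 0.39 and 1.21 ± 0.38 on the log2 scale from the graft to colon on days 4, 8 and 12 (adjusted p = 0.0419, 0.0355 and 0.00763). To ileum it rose by 1.47 ± 0.38, 2.01 ± 0.39 and 2.33 ± 0.39 (adjusted p = 0.00222, 1.24e-04 and 2.30e-05). With the experiment as a replicate block, the calls in colon on days 4 and 8 were lost (0.78, adjusted p = 0.0810, and 0.84, adjusted p = 0.0636). They were also lost with library totals (0.61, adjusted p = 0.183, and 0.73, 0.115) and without graft replicate 1 or 3 or any colonic library of that day (adjusted p between 0.0540 and 0.147).

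Tgfbr1, which encodes the signalling receptor, was at 365, 426 and 421 in the graft. In colon it was at 238, 276 and 199 on day 4, at 405, 264 and 302 on day 8 and at 401, 445, 262 and 191 on day 12. In ileum it was at 442, 371, 276 and 792 on day 4, at 567, 924, 448 and 173 on day 8 and at 1012, 470, 382 and 565 on day 12. The graft lay inside the range of the gut libraries. The log2 differences from the graft were -0.43 ± 0.41, -0.075 ± 0.40 and -0.0021 ± 0.38 in colon (adjusted p = 0.376, 0.885 and 0.997) and 0.62 ± 0.39, 0.86 ± 0.38 and 1.09 ± 0.38 in ileum, of which the last passed (adjusted p = 0.178, 0.0634 and 0.0191). The difference on day 8 passed with DESeq2 (0.86, adjusted p = 0.0465), with the stricter filter (0.96, 0.0374) and without ileum day 8 replicate 4 (1.105, 0.0158) or ileum day 12 replicate 1 (0.86, 0.0401). The call on day 12 was lost without ileum day 12 replicate 1 (0.69, adjusted p = 0.117), without graft replicate 1 (1.01, 0.0663), with library totals (0.59, 0.226) and with all 4 colon day 8 libraries in the fit (1.09, 0.0765).

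Of the receptor-activated SMADs, Smad2 was called lower and Smad3 higher in ileum on day 12. Their differences from the graft had the same signs in colon. Between the segments neither gene passed on day 12 with edgeR (adjusted p = 0.391 and 0.696), whereas Smad2 did on day 8 (0.0316). Smad2 was at 452, 419 and 228 in the graft, at 124 to 276 in the 10 colonic libraries (median 221) and at 80.9 to 224 in the 12 ileal libraries (median 154). Per mapped read, all 12 ileal libraries lay below the lowest graft library, whereas 4 of the 10 colonic libraries lay above it. Ileal values were 182, 224, 138 and 200 on day 4, 165, 80.9, 147 and 91.8 on day 8 and 192, 162, 133 and 111 on day 12. With reads on genes in place of mapped reads, the lowest graft library was at 331. Ileal libraries then reached 386 on day 4 and 332 on day 8, so this separation did not hold. In ileum Smad2 fell by 1.02 ± 0.28 on day 8 and by 0.81 ± 0.27 on day 12 on the log2 scale (adjusted p = 0.00355 and 0.0151), and its difference of -0.52 ± 0.28 on day 4 did not pass (adjusted p = 0.115). Per pan-leukocyte read, the scale used above for Tgfb1, both pointed the other way (1.14 and 1.13). The call on day 12 was lost without graft replicate 1 (-0.65, adjusted p = 0.0832) or 2 (-0.71, 0.0655). In colon the differences were -0.65 ± 0.29, -0.23 ± 0.29 and -0.50 ± 0.27 (adjusted p = 0.0599, 0.514 and 0.112), and that of day 4 passed with the experiment as a replicate block (-0.74, adjusted p = 0.0335) and with library totals (-0.99, 0.00726). It passed too without graft replicate 3 (-0.88, adjusted p = 0.0176), colon day 4 replicate 1 (-0.83, 0.0421), ileum day 8 replicate 2 or ileum day 12 replicate 1 (-0.65 each, 0.0399 and 0.0486). Library totals also brought Smad2 past the threshold at colon day 12 (-0.87, adjusted p = 0.00918) and ileum day 4 (-0.96, 0.00637), as did leaving out graft replicate 3 (-0.73, 0.0320, and -0.76, 0.0344).

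Per mapped read, Smad3 was at 92.6, 118 and 75.1 in the graft and at 101 to 181 in colon (median 129). In ileum it was at 23.8 to 153 (median 110), so that the groups overlapped on this scale. With reads on genes in place of mapped reads, the graft was at 109 to 168. Colon was then at 195 to 220, 193 to 213 and 174 to 265 on days 4, 8 and 12, above the graft without overlap. Ileum still overlapped the graft on days 4 (147 to 270) and 8 (46.5 to 224), and not on day 12 (170 to 289). Smad3 rose by 0.78 ± 0.32 on the log2 scale from the graft to colon day 12 and by 0.95 ± 0.32 to ileum day 12 (adjusted p = 0.0353 and 0.0142). The other 4 differences were 0.39 to 0.74 (adjusted p between 0.0595 and 0.318). Of these, those of colon days 4 and 8 passed with DESeq2 (0.77, adjusted p = 0.0234, and 0.70, 0.0393) and with only the groups compared (0.74, 0.0237, and 0.70, 0.0272). That of day 4 also passed with experiment 2 alone for ileum day 4 (0.74, 0.0467) and without graft replicate 2 (0.92, 0.0498), ileum day 4 replicate 3 or ileum day 8 replicate 2 or 4 (adjusted p = 0.0470, 0.0477 and 0.0211), and that of day 8 without ileum day 8 replicate 4 (0.0329). Library totals ended both calls (0.44, adjusted p = 0.288, and 0.46, 0.271). So did leaving out graft replicate 3 (0.65, adjusted p = 0.129, and 0.82, 0.0667), and in colon so did leaving out graft replicate 1, colon day 12 replicate 1 or 4 (adjusted p = 0.0880, 0.0831 and 0.0800) or the filter on low counts (0.75, 0.0674). Smad4, which encodes the partner shared by all signalling SMADs, was at 716, 696 and 785 in the graft, at 513 to 1154 in colon (median 810) and at 249 to 942 in ileum (median 559). None of its differences from the graft passed (log2 -0.12 to 0.64, adjusted p between 0.0620 and 0.827). Smad4 passed at colon day 8 with DESeq2 (0.66, adjusted p = 0.0368), with the stricter filter (0.70, 0.0387), with only the groups compared (0.66, 0.00931), with experiment 2 alone for ileum day 4 (0.64, 0.0166) and without ileum day 4 replicate 2 or 3 (0.64 each, 0.0354 and 0.0279). At colon day 4 it passed with only the groups compared (0.56, 0.0136) and with experiment 2 alone for ileum day 4 (0.56, 0.0339). With library totals the difference was below 0 at colon day 12 and at ileum days 4 and 8 (-0.18, -0.30 and -0.50).

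Smad7, the inhibitory SMAD, was at 118, 98.8 and 77.5 in the graft. In colon it was at 470, 451 and 636 on day 4, at 689, 668 and 393 on day 8 and at 559, 405, 396 and 397 on day 12. In ileum it was at 423, 542, 673 and 364 on day 4, at 499, 482, 291 and 367 on day 8 and at 333, 459, 543 and 308 on day 12. Every one of the 22 gut libraries lay above all 3 graft libraries, and the 6 gut groups overlapped each other. How many of all genes separated so was not counted, while 34.3% to 37.7% of all genes were called higher than the graft. Smad7 rose by 2.74 ± 0.29, 2.81 ± 0.29 and 2.50 ± 0.28 on the log2 scale in colon (adjusted p = 3.22e-08, 2.21e-08 and 6.01e-08) and by 2.80 ± 0.28, 2.62 ± 0.28 and 2.52 ± 0.28 in ileum (adjusted p = 2.01e-08, 5.91e-08 and 8.98e-08). All 6 calls held under every setting with a test.

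The corepressor genes parted. Skil was at 56.1, 124 and 65.4 in the graft. In colon it was at 283, 208 and 228 on day 4, at 324, 185 and 195 on day 8 and at 261, 333, 191 and 223 on day 12. In ileum it was at 426, 344, 341 and 235 on day 4, at 363, 273, 335 and 173 on day 8 and at 584, 327, 322 and 325 on day 12. As for Smad7, no gut library overlapped the graft. Skil rose by 1.86 ± 0.34, 1.74 ± 0.34 and 1.94 ± 0.32 on the log2 scale in colon (adjusted p = 5.54e-05, 1.21e-04 and 1.86e-05) and by 2.47 ± 0.33, 2.32 ± 0.33 and 2.72 ± 0.33 in ileum (adjusted p = 1.39e-06, 3.34e-06 and 3.62e-07), and these calls too held under every setting with a test. Ski was at 267, 339 and 322 in the graft, at 154 to 341 in colon (median 232) and at 116 to 647 in ileum (median 257). The ranges overlapped, and none of its differences passed (log2 -0.13 to 0.44, adjusted p between 0.266 and 0.996). With library totals the 3 ileal differences were below 0 (-0.24, -0.029 and -0.27).

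**Figure D3:**
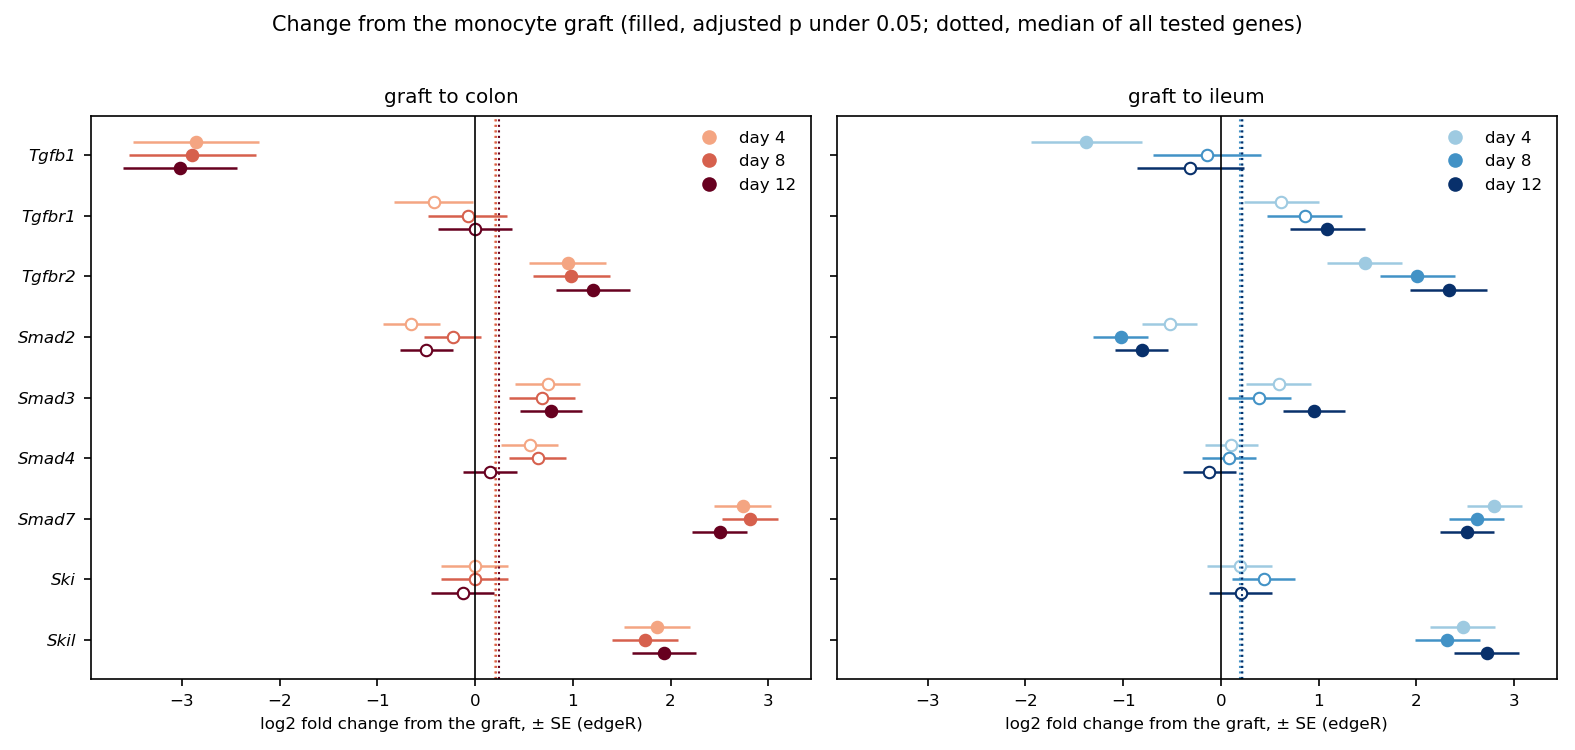
Log2 fold change from the graft to colon (left) and to ileum (right) on days 4, 8 and 12, fitted with edgeR, with bars of ± SE. Filled points have an adjusted p under 0.05, and dotted lines mark the median of all 11842 genes (0.20 to 0.24). Smad7 and Skil lie at 1.74 to 2.81 on every day, and Tgfb1 lies at -3.02 to -2.85 in colon.

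Ordered by the mean of their groups, Tgfb1 was highest in the graft, then in ileum on days 8, 12 and 4, and lowest in colon, and each group overlapped the next. Tgfbr1 and Tgfbr2 were highest in ileum on day 12, then day 8 and day 4. Tgfbr2 was lowest in the graft, with no overlap with colon day 4, the group above it, and Tgfbr1 was lowest in colon day 4. Smad7 and Skil were each lowest in the graft with no overlap with the group above it (ileum day 8 and colon day 8). Apart from these 3 steps, neighbouring groups overlapped per mapped read for all 9 genes, except for Smad2 between colon day 8 and day 12. The share of all genes with such steps was not counted.

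To ask whether the segments differed, colon was compared with ileum on each day, which is also the test of whether the changes from the graft differed. On day 4, 0 of the 9 genes passed with edgeR, where 3.18% of all genes (377) did. Segment and experiment were unbalanced on this day. Colon replicates 1 and 3 were of experiment 2 and replicate 2 of experiment 3. Ileum replicates 2 and 3 were of experiment 1 and replicates 1 and 4 of experiment 2. The study describes ileal samples of this day that grouped with the colonic ones, without naming the libraries. Tgfb1 and Tgfbr1 had an unadjusted p under 0.05 (2 of 9), where 2586 of all 11842 genes did. DESeq2 called 0 of the 9, where it called 1080 of all genes. With the ileal libraries of experiment 2 alone Tgfbr1 (-1.38, adjusted p = 0.0247) and Tgfbr2 (-1.05, 0.0304) passed, where 3069 of all genes did. Without ileum day 4 replicate 2, Tgfb1 (-1.79, 0.0473) and Smad4 (0.76, 0.0486) passed. With the experiment as a replicate block, 0 of the 9 passed, where 1265 of all genes did. The counts on day 4 thus depended on the ileal libraries and the model used. They do not show that the segments were alike on that day. On day 8, Smad2 was higher in colon by 0.80 ± 0.28 on the log2 scale, 1 gene where 16.7% of all genes were higher, and Tgfb1 and Tgfbr2 were lower by -2.75 ± 0.63 and -1.03 ± 0.37, 2 genes where 18.3% were lower (adjusted p = 0.0316, 0.00230 and 0.0343). On day 12, 0 genes were higher in colon, where 15.3% of all genes were, and 4 were lower, where 17.2% were. These were Tgfb1 (-2.70 ± 0.56), Tgfbr1 (-1.09 ± 0.35), Tgfbr2 (-1.12 ± 0.33) and Skil (-0.79 ± 0.27), with adjusted p = 0.00120, 0.0202, 0.0131 and 0.0314. No difference in Smad3, Smad4, Smad7 or Ski passed on any day (log2 -0.44 to 0.56), but that of Smad4 on day 8 passed with library totals (0.88, adjusted p = 0.0190) and with experiment 2 alone for ileum day 4 (0.56, 0.0368). The difference of Tgfbr1 on day 8 (-0.93 ± 0.39, adjusted p = 0.0633) passed with DESeq2 (-0.91, 0.0474), with the stricter filter (-0.98, 0.0465) and without ileum day 8 replicate 4 (-1.18, 0.0184) or ileum day 12 replicate 1 (-0.94, 0.0397).

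The segments also differed in the levels of marker genes of other cell types, and which cells these reads came from was not tested. All 15 epithelial genes were higher in colon on day 12 and 11 on day 8, and all 8 endothelial genes were lower in colon on both days. Per 1000 pan-leukocyte reads, the differences called on day 12 pointed the other way for all 4 genes, at 0.27 for Tgfb1, 1.54 for Tgfbr1, 1.30 for Tgfbr2 and 1.77 for Skil. The pan-leukocyte sum was itself lower in colon (2307 to 8009) than in ileum (11853 to 43014) on day 12. Any gene lower in colon by less than that sum turns on this scale. Of the calls on day 12, those of Tgfb1 and Tgfbr2 held under every setting with a test, and those of Tgfbr1 and Skil were lost with library totals (-0.91, adjusted p = 0.0767, and -0.64, 0.0950) and without ileum day 12 replicate 1 (-0.69, 0.139, and -0.48, 0.188). They were also lost without colon day 12 replicate 3 or 4, and that of Skil without replicate 1 (adjusted p between 0.0568 and 0.0896). On day 8, adding the unused colonic library left 0 calls (Tgfb1 -0.82, adjusted p = 0.441, Tgfbr2 -0.88, 0.0621, and Smad2 0.63, 0.113), and leaving out colon day 8 replicate 2 or 4 left 1, Tgfb1. The call of Tgfbr2 was also lost with library totals (-0.69, adjusted p = 0.143) and without colon day 8 replicate 3 or ileum day 8 replicate 1 or 4 (adjusted p = 0.100, 0.174 and 0.0790), and that of Smad2 without ileum day 8 replicate 2 or 4 (0.100 and 0.0527).

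Over time within a segment the genes did not change detectably. From day 4 to day 12 in colon, 0 of 9 passed with edgeR, 0 had an unadjusted p under 0.05 and DESeq2 called 0, and over all genes 0% were called, with 245 at an unadjusted p under 0.05 and 1 called by DESeq2. The differences were -0.41 to 0.42 on the log2 scale. In ileum 0 of 9 passed, where 2.30% of all genes did. Of the 9, 1 gene, Tgfbr2 (0.86 ± 0.34, adjusted p = 0.178), had an unadjusted p under 0.05, where 2100 of all genes did. DESeq2 called 0 of 9 in ileum, where it called 654 of all genes. Tgfb1 had the largest difference there, 1.07 ± 0.54 (adjusted p = 0.306). Without ileum day 4 replicate 1 the rise of Tgfbr2 passed (1.14, adjusted p = 0.0482). The interaction of segment and time was called for 0 of 9 genes by edgeR and by DESeq2 and had 0 unadjusted p under 0.05, where 0% of all genes were called, with 739 at an unadjusted p under 0.05 and 1 called by DESeq2. With 3 or 4 libraries per group, these differences had standard errors of 0.23 to 0.80, and changes of that size were not detectable.

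The surroundings of these genes in the pathway were taken from 8 lists of 92 genes in all, of which 79 were tested. From the graft to colon 40, 38 and 41 of the 79 were higher (35.9%, 35.2% and 37.7% of all genes) and 11, 9 and 12 lower (24.5%, 23.9% and 24.9%) on days 4, 8 and 12, and from the graft to ileum 50, 49 and 50 were higher (36.2%, 34.3% and 35.9% of all genes) and 8 lower on each day (20.5%, 19.5% and 20.0%). The median was 0.91, 1.01 and 1.115 in colon and 1.64, 1.48 and 1.72 in ileum when 16 genes with no read in the graft were held at their lower bound. By list, beside 37.7% of all genes higher and 24.9% lower, the genes higher and lower on day 12 in colon were 8 and 0 of 9 other ligands, 8 and 2 of 11 genes for latency and activation, 5 and 0 of 10 other receptors, 3 and 0 of 3 other SMADs, 1 and 6 of 11 co-factors, 4 and 1 of 12 negative regulators and 1 and 1 of 5 positive ubiquitin regulators. In ileum, beside 35.9% and 20.0% of all genes, they were 9 and 0, 9 and 2, 8 and 0, 3 and 0, 1 and 4, 6 and 0 and 1 and 1 in the same order. The 2 genes of highest level in each list are named, whatever their change. Among the other ligands, Gdf15 and Bmp2 had 0 to 2.23 normalized reads on average in the graft, and group means of 358 to 898 and of 85.5 to 376 in the gut. Of genes for latency and activation, Nrros, whose product tethers latent TGF-beta 1 on myeloid cells, fell from 2961 ± 223 (SD, n = 3) in the graft to 162 ± 52.8 (n = 4) in colon and 477 ± 325 (n = 4) in ileum on day 12, with log2 fold changes of -3.83 and -2.10 (adjusted p = 3.21e-06 and 0.00164). Mmp14, a membrane protease that can release active TGF-beta, had 0 reads in the graft and means of 463 to 1508 in the gut.

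Among the other receptors, the endothelial co-receptor gene Eng rose from the graft to ileum day 12 (3.61 ± 0.76, adjusted p = 3.18e-04), as did Acvrl1 (2.27 ± 0.49, adjusted p = 3.96e-04), and their differences to colon day 12 were 1.39 ± 0.71 and 0.20 ± 0.47 (adjusted p = 0.0922 and 0.718). Smad1 and Smad5, which carry BMP signals, rose to day 12 by 1.08 and 1.115 in colon and by 1.15 and 1.07 in ileum (adjusted p = 0.00392, 0.00659, 0.00296 and 0.0106). The SMAD co-factor genes Strap and Snw1 were at 1039 ± 153 and 1321 ± 217 in the graft. Strap fell to day 12 (-0.55 in colon and -0.73 in ileum, adjusted p = 0.0256 and 0.00483), and Snw1 did not pass (adjusted p = 0.577 and 0.764). Pmepa1, a negative regulator that the signal induces, had 0 to 5.61 normalized reads in the graft libraries, and its group means were 872 to 1007 in colon and 1173 to 1811 in ileum. Ctdsp2, a SMAD phosphatase gene, fell to colon day 12 (-0.96 ± 0.25, adjusted p = 0.00196) and did not pass in ileum (-0.54 ± 0.25, 0.0701).

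Of the deubiquitinase genes that favour the signal, Usp4 fell to day 12 (-0.51 in colon and -0.52 in ileum, adjusted p = 0.0359 and 0.0388) and Usp15 did not pass (-0.065 and -0.032, adjusted p = 0.822 and 0.921). Of 18 genes known to be induced by TGF-beta, 11, 11 and 11 were higher and 3, 3 and 2 lower in colon on days 4, 8 and 12, and 14, 13 and 13 higher and 2, 2 and 1 lower in ileum, where the shares of all genes were 34.3% to 37.7% higher and 19.5% to 24.9% lower. Their representatives were Cdkn1a, a cell cycle inhibitor gene, which rose by 1.99 ± 0.41 in colon and 1.46 ± 0.40 in ileum to day 12 (adjusted p = 1.97e-04 and 0.00355), and Junb, which rose in ileum (1.37 ± 0.45, adjusted p = 0.0125) and had a difference of 0.70 ± 0.44 in colon (0.169).

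Between colon and ileum, 0 pathway genes were higher and 4 lower on day 4, 7 higher and 21 lower on day 8 and 3 higher and 21 lower on day 12, of 79. Of all genes 3.18% were called on day 4, 16.7% were higher and 18.3% lower on day 8, and 15.3% higher and 17.2% lower on day 12. The 4 lower on day 4, Itgb5 (-1.72), Itgae (-3.53), Cx3cr1 (-2.23) and Hpgds (-1.86), and the 3 higher on day 12, Id1 (1.69), Itgb6 (2.75) and Nedd4l (1.24), were named after their values were seen. Lower in colon on both days 8 and 12 were Nrros (-1.96 and -1.73), Mmp14 (-1.89 and -1.28), Eng (-2.94 and -2.23), Acvrl1 (-2.35 and -2.06) and Pmepa1 (-1.16 and -0.99). Over time 0 of 79 passed in colon and 1, Itgb6 (-2.85, named after its value was seen), in ileum.

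The CX3CR1-DTR recipients were compared with the same graft and with colon day 12 of CD11c-DTR recipients in a fit of 13 libraries and 11718 genes, with levels per 10000000 reads on genes. The libraries of the models stand in separate tables with other dates, so table, date, day and model cannot be told apart. From the graft, 3 of 9 genes were higher, where 39.5% of all genes were, and 5 lower, where 36.0% were. Against colon day 12, 2 were higher, where 25.2% of all genes were, and 6 lower, where 35.4% were. Where groups are said below not to overlap, the share of all genes without overlap was not counted. The median of the 9 genes was -1.78 and -1.97 in these comparisons, against 0.13 and -0.11 over all genes, and library totals moved the latter by -0.29 and 0.03. The 15 epithelial genes summed to 215762 to 276800 in these 6 libraries and to 185719 to 275944 in the 10 colonic libraries of CD11c-DTR recipients. Pan-leukocyte genes summed to 2735 to 8180 and to 2863 to 13595 in the same order. Per pan-leukocyte read, the 5 genes lower than in the graft pointed the other way, at 2.72 for Tgfb1, 2.81 for Tgfbr1, 2.37 for Tgfbr2, 2.31 for Smad2 and 2.54 for Smad4. The pan-leukocyte sum was 127229 to 145314 in the graft, so any gene that fell by less than this sum turns to a rise on that scale.

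Tgfb1 was at 239 to 695 in the 6 libraries (median 347), between colon day 12 (149 to 238) and the graft (1528 to 1851) with no overlap. It was lower than the graft by log2 -1.84 ± 0.28 (adjusted p = 2.81e-05) and was 0.99 ± 0.28 above colon day 12 (adjusted p = 0.00661). Tgfbr2, higher in colon day 12 (567 to 661) than in the graft (211 to 357), was at 39.9 to 57.2 (median 49.1), which rests on 7 to 18 reads per library. All 6 libraries lay below both groups, with log2 differences of -2.33 ± 0.22 from the graft and -3.71 ± 0.21 from colon day 12 (adjusted p = 2.70e-07 and 9.78e-09). Tgfbr1 ranged from 16.3 to 322 (median 105), with 2 reads, below the floor of 3, in replicate 1, and was lower, without overlap, than the graft (-1.78 ± 0.55, adjusted p = 0.00932) and colon day 12 (-1.97 ± 0.52, adjusted p = 0.00460).

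Smad2 was at 65.4 to 121 (median 73.1) against 331 to 658 in the graft and 268 to 386 in colon day 12, and Smad4 at 49.0 to 332 (median 163) against 986 to 1141 and 911 to 1327. Neither overlapped the other groups. Their differences were -2.36 ± 0.27 and -2.17 ± 0.33 from the graft (adjusted p = 2.09e-06 and 3.70e-05) and -2.03 ± 0.26 and -2.51 ± 0.32 from colon day 12 (adjusted p = 1.06e-05 and 9.85e-06). Smad3 was at 155 to 426 (median 347), with replicate 1 alone inside the range of the graft (109 to 168) and below that of colon day 12 (174 to 265). It rose from the graft (1.56 ± 0.30, adjusted p = 2.47e-04) and was 0.61 ± 0.25 above colon day 12, where it missed the threshold (adjusted p = 0.0503) and passed with DESeq2 (0.61, adjusted p = 0.0112). The latter difference also passed with library totals (0.63, 0.0470), with only the groups compared (0.67, 0.0468) and without replicate 1 (0.77, 0.00185).

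Smad7 was at 57.2 to 505 (median 293), with its lowest library below the graft (113 to 172) and all 6 below colon day 12 (687 to 818). It rose from the graft by 1.43 ± 0.44 (adjusted p = 0.00840) and was lower than colon day 12 (-1.25 ± 0.36, adjusted p = 0.00730). Skil was at 73.5 to 139 (median 108), which overlaps the graft (81.7 to 176) and lies below colon day 12 (341 to 566). Its difference was 0.068 ± 0.31 from the graft (adjusted p = 0.851, and -0.21 with library totals) and -2.05 ± 0.27 from colon day 12 (adjusted p = 1.33e-05). Ski, at 735 to 940 (median 913), was above the graft (388 to 481) and colon day 12 (299.7 to 499) without overlap, by 1.28 ± 0.19 and 1.23 ± 0.17 (adjusted p = 2.46e-05 and 2.34e-05). Of the pathway genes, 71 were tested here, of which 35 were higher and 22 lower than in the graft (39.5% and 36.0% of all genes) and 11 higher and 32 lower than in colon day 12 (25.2% and 35.4%).

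**Figure D4:**
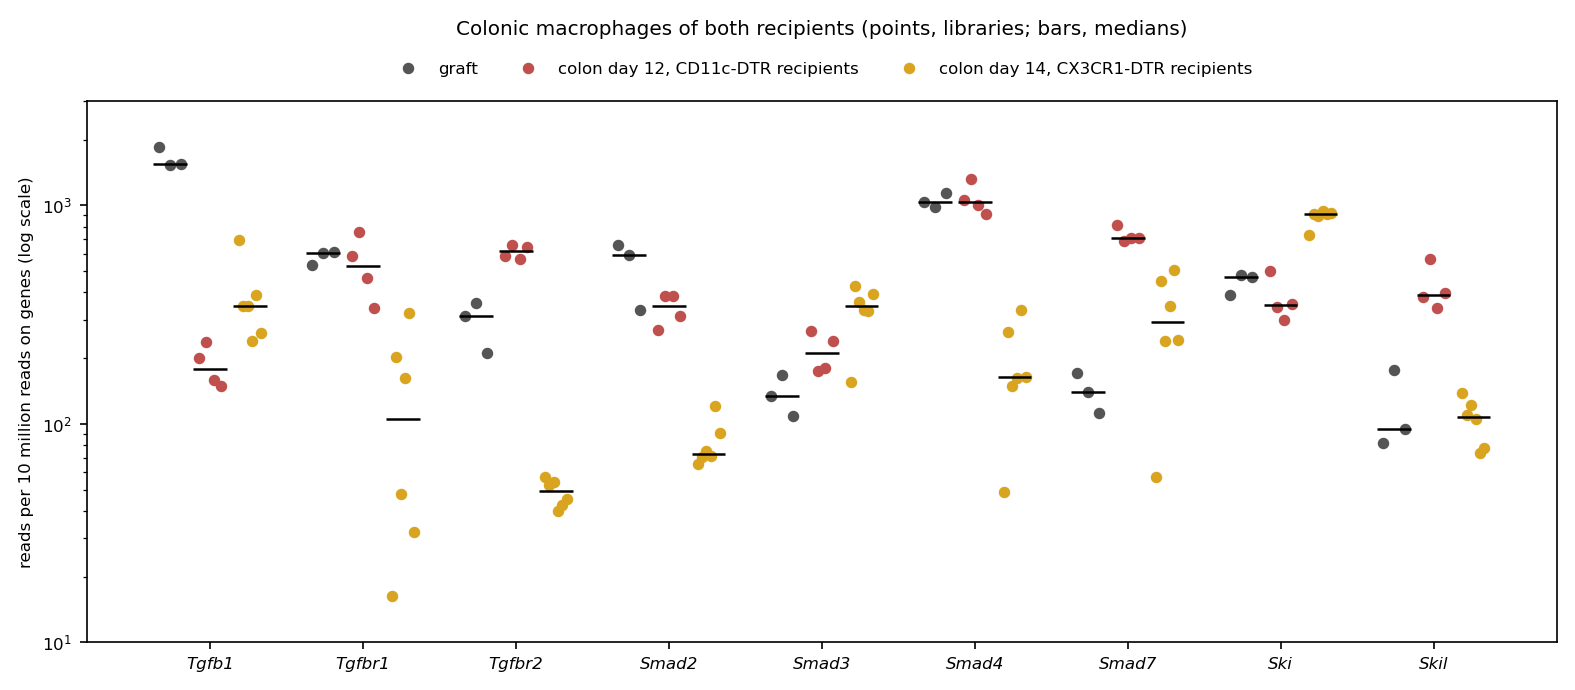
Reads per 10000000 reads on genes (log axis) of the 9 genes in the graft (grey, 3 libraries), colon day 12 of CD11c-DTR recipients (red, 4) and colon day 14 of CX3CR1-DTR recipients (yellow, 6). Points are libraries and bars are medians. The CX3CR1-DTR libraries lie below both other groups for Tgfbr1, Tgfbr2, Smad2 and Smad4 and above both for Ski.

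Finally, the genes whose levels followed each of the 9 most closely over the 25 libraries were taken among 5577 genes, by Pearson's r of log2(normalized reads + 50). Tgfb1 was followed by Lrrc25 (0.957), Fcer1g (0.954) and Evl (0.950), of which Fcer1g is also on the pan-leukocyte list. Tgfbr1 was followed by Tbxas1 (0.890), and Tgfbr2 by Tmem176a (0.905) and by the endothelial genes Adgrf5 (0.903) and Vwf (0.885), the latter on the endothelial list. Smad7 was followed by 1810011O10Rik (0.939), 2900026A02Rik (0.938) and Rhoc (0.936), and Skil by Il1b (0.894), an inflammatory cytokine gene, and Cxcl16 (0.893). Smad2 was followed by Ube2d2a (0.941), Smad3 by Hs6st1 (0.803), Smad4 by Mbd1 (0.893) and Ski by Syvn1 (0.877). The genes named depended on the value added before the logarithm. With 1 in place of 50, Smad7 was instead followed by Efna1, Nectin2 and Slc39a4, and Skil by Tgm2, Cxcl16 and Bcl2a1d. Hcls1 then took the place of Evl for Tgfb1, and Tcf4 that of Adgrf5 for Tgfbr2. The 25 points share graft, segment and experiment, and the coefficients are given as a description.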

How the data were processed

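Libraries were made from sorted cells by the authors with a MARS-seq protocol in a modified form, a method that covers transcript 3′ ends. Per the submitters' processing notes the tools were bcl2fastq, HISAT 0.1.6 and HOMER with mm9. The authors kept uniquely mapping reads, and the deposited values are raw counts of sense reads per gene, not normalized, 1 transcript standing for each gene. A collapse of molecular identifiers and the version of HOMER are not given in the sources used here. Without a name are 52 columns of the table on CX3CR1-DTR recipients, which were not used. Since the method reads 3′ ends, levels of different genes are not compared.

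The quasi-likelihood test of edgeR 4.0.16 (TMM factors) was run under R 4.3.3 on genes reaching 50 normalized reads in 3 or more libraries, a filter that all 9 genes passed, with 1 fit of 7 groups for 25 libraries and 1 of 3 groups for 13. Adjusted p-values are Benjamini-Hochberg over all genes tested. Floors of 3 counts equal 3.51 to 27.65 normalized reads in the 25 libraries and 7.11 to 24.51 in the CX3CR1-DTR libraries, and cover counting error only. Members and lists were chosen with earlier results of these data known. All 9 genes are named, with the 2 genes of highest mean of each pathway list and up to 3 of most like pattern per gene, and others only where said. Alternatives were library totals, DESeq2 1.42.0, no filter, a filter of 200 normalized reads, only the groups compared, leaving out each library, the experiment as a block, all 4 colon day 8 libraries and experiment 2 alone for ileum day 4. Scaling to pan-leukocyte or epithelial marker reads was added after seeing the data. Libraries were placed in experiments by the dates in their titles, reading the year in the title of ileum day 8 replicate 2 as a slip. The dates within an experiment differ, and the labels do not state the experiments. Deviations from group means correlated at 0.0165 on average over 96 pairs of libraries of the same experiment and different groups, and at -0.0095 over 171 pairs of different experiments. Of the 51 pairs of libraries within groups none were duplicates (smallest chi-square per degree of freedom 5.21). Scripts were tested on simulated data. Tables were read with pandas 2.3.3 (python 3.11.15), and matplotlib 3.10.9 drew the plots.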

Additional observations from a re-analysis of the deposited data

Results flagged for a closer look

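In 6 of 45 sets of 4 to 6 libraries, 1 library stood far from the others of its group, where chance gives about 1 in 20. Ileum day 12 replicate 1 was high for Tgfb1 (1555 normalized reads) and Skil (584), and colon day 12 replicate 1 for Smad7 (559). In the CX3CR1-DTR recipients, replicate 1 was low for Ski (735) and Smad3 (155) and high for Tgfb1 (695), per 10000000 reads on genes. This library held the fewest reads of its group (1223772) and departed from the others across genes. Chi-square per degree of freedom was 37.0 to 53.4 in its pairs and 5.21 to 20.6 in the other pairs of the group.

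Changes from the graft differed between segments, by the test of colon against ileum, for Smad2 (0.80), Tgfb1 (-2.75) and Tgfbr2 (-1.03) on day 8 and for Tgfb1 (-2.70), Tgfbr1 (-1.09), Tgfbr2 (-1.12) and Skil (-0.79) on day 12. Between the recipients, colon of CX3CR1-DTR mice differed from colon day 12 of CD11c-DTR mice for Tgfb1 (0.99), Tgfbr1 (-1.97), Tgfbr2 (-3.71), Smad2 (-2.03), Smad4 (-2.51), Smad7 (-1.25), Ski (1.23) and Skil (-2.05), all log2 differences.

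The colon day 8 library that the study did not use had Tgfbr1 at 1161, Tgfbr2 at 369, Skil at 476 and Smad7 at 449.6 normalized reads, each above the graft. Its pan-leukocyte sum was 28725 and its epithelial sum 70401, and their part in these values was not tested.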

How the results depend on the processing

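Of 126 values (9 genes in 14 comparisons), 50 were called, and 37 of these calls held under every alternative with a test. None of the called values changed sign under these, and the smallest adjusted p of a value with the other sign was 0.133. With the experiment as replicate block the member counts called from the graft to colon on days 4, 8 and 12 were 4, 3 and 5, to ileum 4, 4 and 6, for colon against ileum 0, 3 and 4, and over time and for the interaction 0. Over all 11842 genes the block called 7107, 6878 and 7425 to colon, 6663, 6275 and 6666 to ileum, and 1265, 4133 and 3917 for colon against ileum. Over time and for the interaction it called 0 of all genes. Beside the changes of call given in the report, the block changed no other call of the 9 genes. No paired analysis was possible because of the separate dates for the CX3CR1-DTR comparisons. Of colon against ileum, day 4 gave 2 genes with the experiment 2 libraries of ileum alone, day 8 gave 1 with only the groups compared and 0 with all 4 colon day 8 libraries, and day 12 gave 2 with library totals and 2 with all 4 colon day 8 libraries. The calls over all 11842 genes were 3069, 3767, 3022, 3689 and 3312 in the same order. Leaving out 1 library gave 0 to 2, 1 to 4 and 2 to 4 genes on the 3 days, and 0 to 1 for ileum over time. The cause of these changes was not tested.

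Uncalled values with the other sign follow, as log2. Ski from the graft to colon day 4 was 0.028 (DESeq2), 0.066 (stricter filter), 4.4e-04 (only the groups compared), 0.032 (replicate block) and 7.4e-04 (experiment 2 alone in ileum), and to colon day 8 it was 0.017, 0.057, 0.0041 and 0.0038 under the first 4 of these and 0.081 with all 4 colon day 8 libraries. Tgfbr1 was 0.84 to colon day 8 with all 4 libraries and 0.073 to colon day 12 with the stricter filter. Library totals gave -0.18 (colon day 12), -0.30 (ileum day 4) and -0.50 (ileum day 8) for Smad4 from the graft, -0.24, -0.029 and -0.27 for Ski to ileum on days 4, 8 and 12, -0.094 for Smad3 to ileum day 8, 0.059 and 0.10 for Smad7 in colon against ileum on days 4 and 12, -0.028 for Ski in ileum over time, 0.071 for Tgfbr1 in the interaction and -0.21 for Skil from the graft to CX3CR1-DTR colon. DESeq2 gave -0.023 for the last. With no filter, Smad7 in colon against ileum day 12 was 0.022 and Ski in ileum over time -0.0037. The replicate block gave 0.074 for Smad7 in colon against ileum day 4 and 0.062 and -0.092 for Tgfbr1 and Smad7 in the interaction. Experiment 2 alone gave 0.34 for Smad7 in colon against ileum day 4, 0.11 and -0.13 for Smad7 and Ski in ileum over time, and 0.29, -0.35 and 7.6e-04 for Tgfbr1, Smad7 and Ski in the interaction.

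Leaving out 1 library moved uncalled values across 0 as follows. From the graft, Ski ran from -0.24 to 0.19 (colon day 4), -0.15 to 0.12 (colon day 8) and -0.12 to 0.66 (ileum day 8), Tgfbr1 from -0.24 to 0.061 (colon day 8) and -0.19 to 0.16 (colon day 12), Smad4 from -0.20 to 0.32 (ileum day 4) and -0.088 to 0.20 (ileum day 8), Tgfb1 from -0.32 to 0.090 (ileum day 8) and Skil from -0.13 to 0.52 (CX3CR1-DTR). In colon against ileum on day 4, Ski ran from -0.44 to 5.5e-04, Smad2 from -0.31 to 0.10, Smad3 from -0.023 to 0.35 and Smad7 from -0.21 to 0.17, on day 8 Ski from -0.66 to 0.12 and on day 12 Smad7 from -0.090 to 0.11. In colon over time, Ski ran from -0.32 to 0.12, Skil from -0.073 to 0.16, Smad2 from -0.079 to 0.33, Smad3 from -0.055 to 0.13 and Tgfb1 from -0.50 to 0.053. In ileum over time, Ski ran from -0.16 to 0.10, Skil from -0.058 to 0.40 and Smad4 from -0.44 to 0.078. In the interaction, Ski ran from -0.32 to 0.11, Skil from -0.32 to 0.13, Smad4 from -0.49 to 0.030, Smad7 from -0.18 to 0.20 and Tgfbr1 from -0.34 to 0.35.

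Per pan-leukocyte read, a scale added after seeing the data and without a test, called values changed sign. Any gene that fell by less than the pan-leukocyte sum turns to a rise on this scale. From the graft, Tgfb1 was 1.65, 1.30 and 1.44 in colon on days 4, 8 and 12, 1.09 in ileum day 4 and 2.72 in CX3CR1-DTR colon, and Smad2 was 1.14 and 1.13 in ileum on days 8 and 12. In CX3CR1-DTR colon Tgfbr1, Tgfbr2, Smad2 and Smad4 were 2.81, 2.37, 2.31 and 2.54. Of colon against ileum, Tgfbr2 was 1.25 on day 8, and Tgfb1, Tgfbr1, Tgfbr2 and Skil were 0.27, 1.54, 1.30 and 1.77 on day 12. Per epithelial marker read, Smad2 was -1.11 on day 8. Low counts limit the values in CX3CR1-DTR libraries, where Tgfbr2 rests on 7 to 18 reads and Tgfbr1 on 2 to 136.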
